A study of Homo sapiens with 12 samples.

Results

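The genes described here are the G2 and mitosis genes, a set of 49 genes chosen by name for their work between the end of DNA replication and the separation of the daughter cells. Of these, 48 could be measured among the 18404 genes tested. The exception, CENPA, was carried only by a probe set listed with several gene symbols and is not analysed here. Gene expression was measured on 12 microarrays, 3 for each of 4 groups: JHU-029 or FaDU cells, each infected with a lentivirus that carried either the control (shControl) or an shRNA directed at TP63 (shTP63). Both are established human cell lines from squamous carcinomas of the head and neck (HNSCC). RNA was taken 72 hours after knockdown, and all groups carried a lentiviral vector. The labels name 1 kind of TP63 shRNA. They do not say that the replicates were grown separately, and the p-values then cover only the spread among these arrays, which may be technical. Of the FaDU control arrays, 2 carry the word "new" in their titles, with no explanation. TP63 encodes p63, a transcription factor of basal squamous cells, and its own level is not analysed here, so the knockdown itself was not checked and the arrays are grouped by their labels.

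Entry into mitosis is driven by the kinase CDK1 bound to cyclin B, which the CDC25 phosphatases switch on. PLK1 and the Aurora kinases then build the spindle, kinetochores tie chromosomes to it, and the spindle checkpoint holds back the anaphase-promoting complex (APC/C) until every chromosome is attached. The transcripts of these genes rise late in the cell cycle, when the MuvB complex with B-MYB (MYBL2) and then FOXM1 activates their promoters, and the DREAM complex, which shares the MuvB core, represses them in resting cells. A short promoter element, the cell cycle genes homology region (CHR), is the known contact of MuvB, and CCAAT boxes bound by NF-Y often lie near it.

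The promoters of the genes show that element plainly. RefSeq promoter windows (GRCh38.p14, 250 bases before to 50 bases after the start site) were matched for 43 of the 49 genes, which gave 55 windows because 7 genes had several starts. A CHR match was TTTGAA on either strand, or the variant form TTTAAA, and 40 of the 55 windows (72.7%) held one. The share was 24% of all 35114 windows in the table and 19.9% of the 20099 windows of genes tested. CCAAT on either strand was in 70.9% of the genes' windows and 34.6% of all windows. Both motifs stood together in 56.4% against 9.27%, and a CHR match overlapped a CCAAT match in 2 of the 55 windows. The E2F-type sequence TTCCCGC, or its variant form TTGGCGC, was in 20% of the windows, against 61.7% of 47 windows of S phase genes and 9.23% of all windows. TATAAA was in 3.64% of the windows, against 11.5% of all. The CHR and CCAAT shares were not particular to these genes. Of 46 windows of other mitotic genes, a list described below with no member in common, 67.4% held a CHR match. CCAAT was in 60.9% of those windows, and both motifs in 47.8%.

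The 150 bases just upstream of the start are printed below for 6 genes. CDCA8, CENPE and GTSE1 fell on TP63 knockdown in FaDU, HMMR and ANLN rose, and CCNB1 (cyclin B1) passed no test of the knockdown. The windows are chr1:37692366-37692515 (plus strand) for CDCA8, chr4:103198344-103198493 (minus strand) for CENPE, chr22:46296720-46296869 (plus strand) for GTSE1, chr5:163460482-163460631 (plus strand) for HMMR, chr7:36389712-36389861 (plus strand) for ANLN and chr5:69167000-69167149 (plus strand) for CCNB1. Capitals mark the letters of CHR matches and of CCAAT matches, read on either strand, so that a CCAAT box on the opposite strand shows as ATTGG.
CDCA8: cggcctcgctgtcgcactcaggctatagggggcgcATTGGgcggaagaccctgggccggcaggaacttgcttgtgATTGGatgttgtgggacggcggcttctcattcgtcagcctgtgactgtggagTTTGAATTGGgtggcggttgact
CENPE: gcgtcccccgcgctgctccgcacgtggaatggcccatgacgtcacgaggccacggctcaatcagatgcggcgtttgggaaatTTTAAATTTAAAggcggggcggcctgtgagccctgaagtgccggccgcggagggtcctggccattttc
GTSE1: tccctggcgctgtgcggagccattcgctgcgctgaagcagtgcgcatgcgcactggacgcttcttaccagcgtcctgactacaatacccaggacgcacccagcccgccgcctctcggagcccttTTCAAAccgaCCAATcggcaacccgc
HMMR: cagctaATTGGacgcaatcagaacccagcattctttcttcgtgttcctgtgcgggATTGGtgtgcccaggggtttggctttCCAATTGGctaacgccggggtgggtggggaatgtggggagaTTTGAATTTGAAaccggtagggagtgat
ANLN: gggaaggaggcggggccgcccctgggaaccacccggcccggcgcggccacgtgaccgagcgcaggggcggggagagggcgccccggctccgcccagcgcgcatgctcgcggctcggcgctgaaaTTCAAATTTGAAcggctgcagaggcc
CCNB1: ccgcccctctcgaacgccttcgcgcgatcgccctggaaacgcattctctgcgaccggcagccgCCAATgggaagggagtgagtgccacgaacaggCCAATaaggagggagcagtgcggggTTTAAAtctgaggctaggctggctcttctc
In these sequences the CHR match began at position -23 in CDCA8, -26 in GTSE1 and -30 in CCNB1, counted from the start site. CENPE, HMMR and ANLN each had a pair of adjacent matches. CENPE and ANLN held no CCAAT match in the printed bases, and HMMR held 4.

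The CHR matches clustered near the start site. Of 63 matches in the genes' windows, 40 (63.5%) began between positions -60 and 50, against 28.8% of the 11212 matches in all windows. The 20 bases from -30 to -11 held 30.9 matches per 100 windows, against 2.20 over all windows. The motif was found in genes that moved either way: CHR matches stood in 14 of 18 windows (77.8%) of the genes that fell in FaDU, in 3 of 3 windows of those that rose, and in 22 of 33 windows (66.7%) of those that passed no test there. A match describes letters in a window and not binding.

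**Figure D1:**
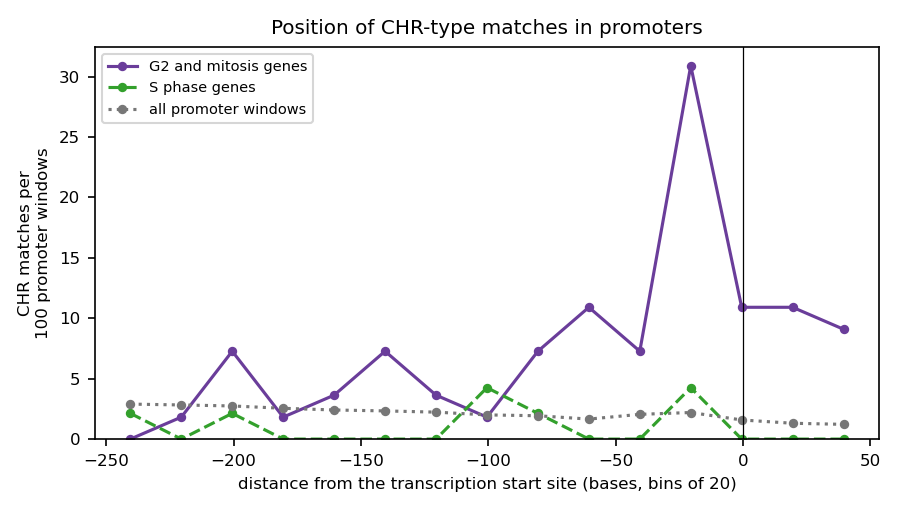
CHR-type matches on either strand per 100 promoter windows, by distance from the transcription start site in bins of 20 bases, for the G2 and mitosis genes (55 windows), S phase genes (47 windows) and all 35114 windows. The G2 and mitosis genes peak at 30.9 matches per 100 windows just upstream of the start, where all windows stand at 2.20.

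Expression values are given as log2 of the deposited array intensity, and a change is shTP63 minus shControl on that scale. Arrays of the same group correlated at 0.993 to 0.997 over all genes, and arrays of different lines at 0.940 to 0.951. Squamous epithelial markers were read for the tissue: all 12 measured, KRT5 and KRT14 among them, lay above the array median in every group. Both lines are squamous, so this count cannot check which line or shRNA an array carries. In FaDU their summed intensity was 29653 to 30154 in controls and 21345 to 22050 after knockdown, with 8 of the 12 past the test as lower. Of all genes in FaDU, 14.2% were called lower and 12.4% higher, the shares behind each marker count past the test there. In JHU-029 the sums were 45246 to 47851 and 42543 to 44997. There 1 of the 12 rose and 1 fell, where 1.80% of all genes rose and 1.35% fell. Of 8 endothelial markers, 2 lay above the array median in FaDU and 2 rose (CDH5 and ESAM), and the summed intensity of the list moved from 765–784 to 1151–1245. The median change of the 8 markers there was 0.023 and 3 changes were negative, so the list did not move as a whole. Of 10 immune markers, 3 lay above the array median in every group. In FaDU 1 of them rose (CD14), with sums of 2332 to 2385 and then 2403 to 2710. Of 10 fibroblast markers, 1 or 2 lay above the array median in each group. By limma 0 passed in either line, with 1 in JHU-029 and 2 in FaDU higher at an unadjusted p under 0.05. In JHU-029 8.34% of all genes were higher at that unadjusted level. The part of these shifts in the results below was not tested. In bulk RNA, fewer cells in G2 and mitosis and less RNA per cell cannot be told apart.

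After TP63 knockdown the G2 and mitosis genes lay mostly a little higher in JHU-029 and mostly lower in FaDU. In JHU-029, 41 of 48 genes had a positive change, but only 3 rose past the threshold (KIF20B, ANLN and AURKA) and 0 fell. In FaDU, 15 fell and 3 rose (HMMR, ANLN and NCAPD2). The count of signs there depended on scaling. In FaDU 33 of the 48 changes were negative and 15 positive, but 23 were positive after another quantile normalization and 21 with cyclic loess scaling. CDCA8, which anchors the chromosomal passenger complex, and CDC25B, a CDK1-activating phosphatase, fell most, by more than a log2 unit. The remaining changes in FaDU were less than 0.7 on the log2 scale.

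The counts have to be read against how many genes were called in each line. With limma (two-sided, Benjamini-Hochberg adjustment over all 18404 genes, threshold 0.05), 3.15% of all genes were called in JHU-029, 1.80% higher and 1.35% lower. The genes' share there was 6.25% higher and 0 lower. At an unadjusted p under 0.05, 19 of the 48 genes were higher there and 2 lower, where 8.34% of all genes were higher and 6.48% lower. In FaDU 26.6% of all genes were called, 12.4% higher and 14.2% lower, and the genes' shares were 6.25% higher and 31.2% lower. The median change of the genes was 0.11 in JHU-029 and -0.08 in FaDU, beside 0.00028 and 0.016 over all genes.

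Counting the same arrays without the fit leaned the same way in each line, but the counts differed. In JHU-029 it took in far more genes than the 3 called higher by the fit. The count rests on the same arrays and is no separate support. In JHU-029 the 3 knockdown arrays lay above all 3 control arrays for 30 of the 48 genes (62.5%), where 13.3% of all genes did so. They lay below for 4 genes (8.33%), against 11.7% of all genes. In FaDU they lay above for 9 genes (18.8%, against 18.1% of all genes) and below for 22 (45.8%, against 18.0%). The higher share in FaDU stood at the level of all genes, where by the fit it was 6.25% against 12.4%.

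The mean over the 48 genes, set against the mean of each line's controls, was -0.018, 0.031 and -0.013 in the JHU-029 controls and 0.078, 0.096 and 0.109 after knockdown. In FaDU it was 0.011, -0.034 and 0.023 in the controls and -0.149, -0.110 and -0.090 after knockdown. In each line the knockdown arrays stood apart from the controls, above them in JHU-029 and below them in FaDU. These means are descriptions with no test, since the genes were chosen with earlier results of these data known.

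**Figure D2:**
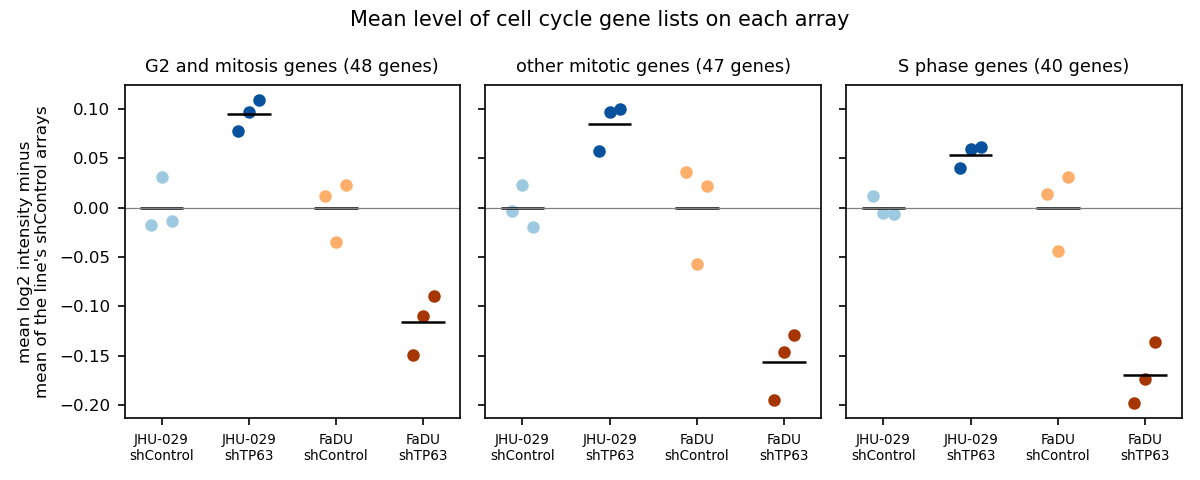
Mean log2 intensity of 3 gene lists on each of the 12 arrays, minus the mean of that line's 3 shControl arrays; points are arrays and bars are group means. For the 48 G2 and mitosis genes the JHU-029 knockdown arrays lie at 0.078 to 0.109 and the FaDU knockdown arrays at -0.149 to -0.090, and the other mitotic genes and S phase genes lie on the same sides.

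**Figure D3:**
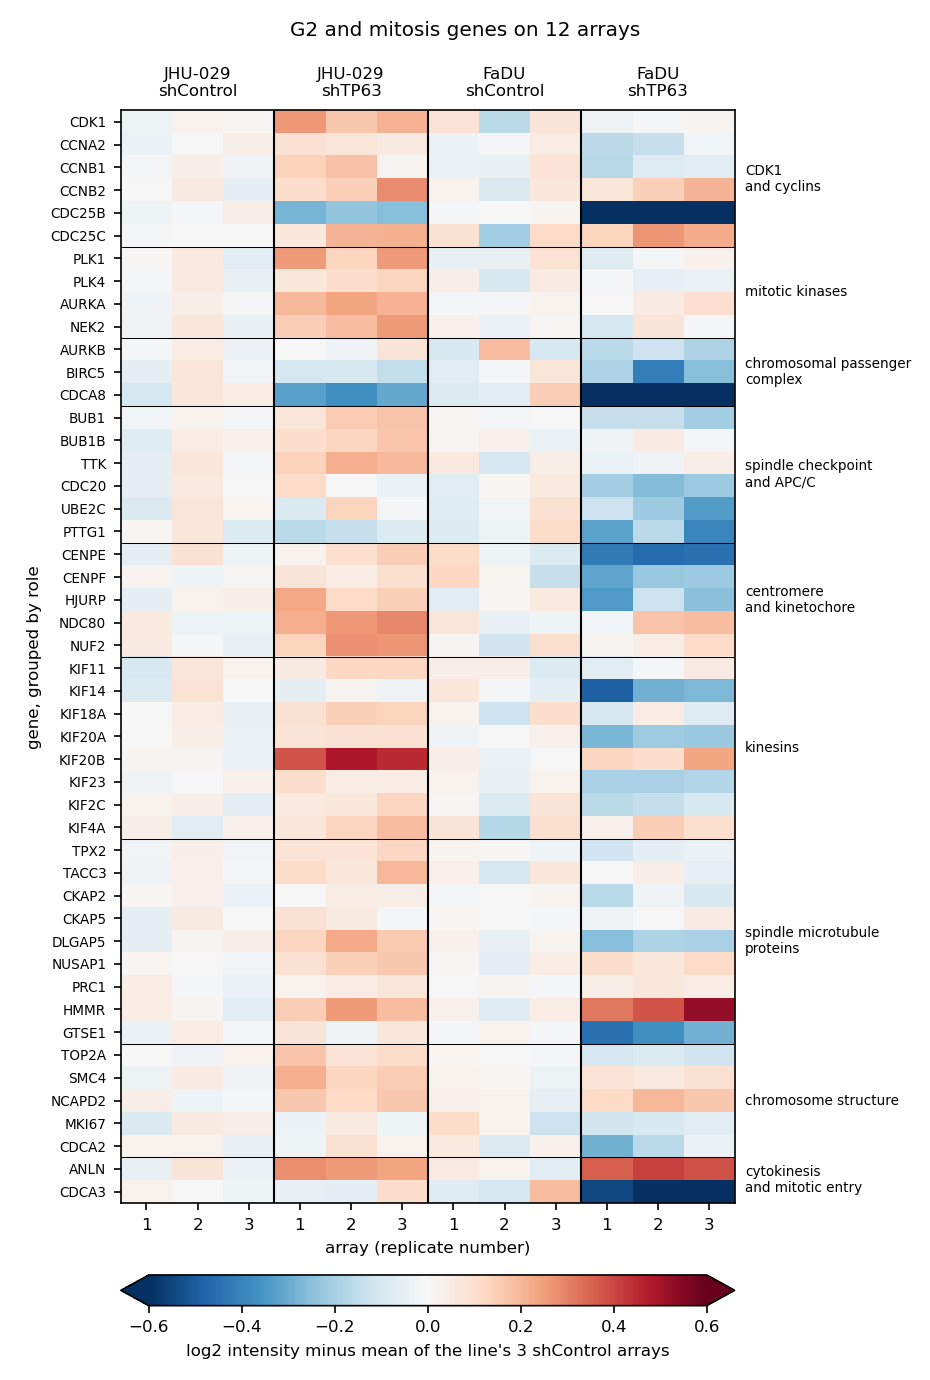
Log2 intensity of each of the 48 genes on each array, minus the mean of that line's 3 shControl arrays, in rows grouped by role; red is higher and blue lower, and the colour scale ends at 0.6 in both directions. The FaDU knockdown columns hold deep blue rows for CDC25B, CDCA8 and CDCA3 and red rows for HMMR and ANLN, while most JHU-029 knockdown columns are pale red.

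Among CDK1, the cyclins and their activating phosphatases, 1 of 6 genes passed the test, CDC25B in FaDU. Behind this and each count by role below, 14.2% of all genes were called lower and 12.4% higher in FaDU. In JHU-029 the shares were 1.35% and 1.80%. CDC25B removes inhibitory phosphates from CDK1 and helps start mitosis. Its log2 intensity was 8.14, 8.15 and 8.17 in the FaDU controls and 7.17, 6.82 and 7.16 after knockdown. The groups lay far apart, and the change of -1.10 (SE 0.08, n = 3 against 3, limma adjusted p = 1.18e-06) was the second largest of the 48 genes. In JHU-029 it was 9.85, 9.87 and 9.91 in controls and 9.60, 9.64 and 9.62 after knockdown. Those groups did not overlap either, but the change of -0.26 missed the threshold (limma adjusted p = 0.126).

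CDK1 itself, the kinase of mitotic entry, did not pass in either line. In JHU-029 it read 9.97, 10.02 and 10.01 in controls and 10.26, 10.16 and 10.21 after knockdown, a change of 0.21 (SE 0.07, limma adjusted p = 0.127) with no overlap. In FaDU, 2 of the 3 controls lay above all knockdown arrays and 1 below, and the change was -0.0049 (adjusted p = 0.97). CCNB1, its mitotic cyclin, changed by 0.11 in JHU-029 and -0.11 in FaDU (limma adjusted p = 0.466 and 0.219). CCNA2, cyclin A2, changed by 0.07 and -0.11, CCNB2 by 0.18 and 0.14, and the phosphatase CDC25C by 0.16 and 0.20, all short of the threshold.

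Of the 4 mitotic kinases, AURKA alone passed, in JHU-029. Aurora A matures centrosomes and builds the spindle poles. Its controls read 10.75, 10.81 and 10.76 and its knockdown arrays 10.97, 11.01 and 10.98. The arrays were tightly grouped and did not overlap, with a change of 0.21 (SE 0.05, limma adjusted p = 0.0347). The call rested on all 6 arrays of the line: leaving out any 1 of them moved the adjusted p above the threshold, up to 0.143. In FaDU the change was 0.05 (adjusted p = 0.525). PLK1, which drives mitosis from entry to exit, changed by 0.21 in JHU-029 (SE 0.06, limma adjusted p = 0.0969) and -0.02 in FaDU (adjusted p = 0.849). NEK2, a centrosome-splitting kinase, changed by 0.19 and -0.02, and PLK4, which starts centriole copying, by 0.10 and -0.03.

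The chromosomal passenger complex brings Aurora B to chromosomes and later to the division plane, and 2 of its 3 measured genes fell in FaDU. CDCA8 (borealin), a targeting subunit, read 8.76, 8.77 and 8.99 in the FaDU controls and 7.40, 7.63 and 7.88 after knockdown. The highest knockdown array lay well below the lowest control, and the change was -1.20 (SE 0.11, limma adjusted p = 5.04e-06), a 2.30-fold lower level. In JHU-029 CDCA8 read 9.76, 9.93 and 9.91 in controls and 9.54, 9.50 and 9.56 after knockdown. The groups did not overlap there, but the change of -0.33 (SE 0.11, limma adjusted p = 0.134) did not pass.

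BIRC5 (survivin), the other targeting subunit, fell in FaDU by 0.29 on the log2 scale (SE 0.07, limma adjusted p = 0.00648). It has a second, dimmer probe set, which gave -0.63 in FaDU, so the size of its fall depends on the probe set. AURKB, the kinase of the complex, changed by 0.02 in JHU-029 and -0.16 in FaDU (SE 0.07, limma adjusted p = 0.142). 1 FaDU control array stood above the others for AURKB, at 9.73 against 9.45 and 9.45.

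In the spindle checkpoint and APC/C group, 3 of 6 genes fell in FaDU and 0 passed in JHU-029, where 3 were higher at an unadjusted p under 0.05 by limma (8.34% of all genes were, the share behind each such count below). PTTG1 (securin), which holds separase inactive until anaphase, fell by 0.29 (limma adjusted p = 0.0102). CDC20, the APC/C activator that the checkpoint captures, fell by 0.23 (limma adjusted p = 0.0116), from 11.18, 11.26 and 11.31 to 11.04, 10.99 and 11.03. BUB1, a checkpoint kinase at kinetochores, fell by 0.17 (limma adjusted p = 0.0248), and lost the call without FaDU control 1 (adjusted p = 0.0600), control 3 (0.0511) or knockdown array 3 (0.0893). The BUB1 call was also lost with another scaling (cyclic loess), FaDU fitted alone, a fixed replicate block or without the 2 FaDU controls titled new. UBE2C, an APC/C ubiquitin-conjugating enzyme, just missed (-0.22, limma adjusted p = 0.0544). The checkpoint genes BUB1B and TTK changed by 0.01 and -0.01 in FaDU, and by 0.13 and 0.18 in JHU-029, with no call.

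Of 5 centromere and kinetochore genes measured, 3 fell in FaDU and 0 passed in JHU-029, where 3 were higher at an unadjusted p under 0.05 by limma. CENPE, a kinesin that carries chromosomes to the spindle equator, read 9.69, 9.55 and 9.50 in the FaDU controls and 9.16, 9.12 and 9.13 after knockdown. The knockdown arrays were nearly level and all below the controls, with a change of -0.44 (SE 0.06, limma adjusted p = 0.000234). CENPF, a large outer kinetochore protein, fell by 0.25 (adjusted p = 0.0111 by limma). Without the 2 FaDU controls titled new it changed by -0.12 (adjusted p = 0.292), in a fit that leaves 1 FaDU control, assumed to vary like the other groups, here and wherever those controls are left out. HJURP, the chaperone that loads CENP-A onto centromeres, fell by 0.24 (limma adjusted p = 0.0153). It lost the call without FaDU control 3 (limma adjusted p = 0.0592) or knockdown array 1 (0.0624), and also after another quantile normalization or with FaDU fitted alone.

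Of the microtubule-binding NDC80 complex, NDC80 and NUF2 did not share those falls. SPC24, a subunit counted in another list below, changed by -0.66 in FaDU. NDC80 changed by 0.26 in JHU-029, just over the threshold (limma adjusted p = 0.0533), and by 0.11 in FaDU. NUF2, its partner, changed by 0.22 and 0.06. For both genes the JHU-029 knockdown arrays lay above all controls.

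Among the 8 other kinesins, KIF20B rose in JHU-029 and 3 fell in FaDU. KIF20B works in the closing steps of cell division. In JHU-029 it read 8.62, 8.62 and 8.57 in controls and 8.98, 9.09 and 9.05 after knockdown. The groups lay clearly apart, with a change of 0.44 (SE 0.05, limma adjusted p = 0.00122), a 1.35-fold higher level and the largest rise of the 48 genes in that line. In FaDU its change of 0.16 just missed (limma adjusted p = 0.0528). The falls in FaDU were KIF14, needed for cytokinesis, by 0.35 (limma adjusted p = 0.00257), KIF20A, which moves the passenger complex to the midzone, by 0.24 (0.00205), and KIF23, a subunit of centralspindlin, by 0.19 (0.00976). KIF14 lost the call without the 2 FaDU controls titled new (-0.29, adjusted p = 0.0759). KIF11, which pushes spindle poles apart, changed by 0.11 and -0.01 in the lines, and KIF2C, KIF4A and KIF18A passed in neither.

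Of 9 spindle microtubule proteins, 2 fell and 1 rose in FaDU, where 14.2% of all genes fell and 12.4% rose. In JHU-029 0 passed, with 3 higher at an unadjusted p under 0.05 by limma. GTSE1, a microtubule-binding protein of G2 and mitosis, read 10.41, 10.44 and 10.41 in the FaDU controls and 9.97, 10.05 and 10.13 after knockdown. The controls were almost level and all above the knockdown arrays, with a change of -0.37 (SE 0.06, limma adjusted p = 0.000327). DLGAP5 (HURP), which stabilises kinetochore fibres, fell by 0.21 (limma adjusted p = 0.00975), and its call was lost without the 2 FaDU controls titled new (-0.22, adjusted p = 0.0633). HMMR, a spindle protein that is also a hyaluronan receptor, went the other way, from 10.03, 9.93 and 10.05 to 10.32, 10.38 and 10.53. Every knockdown array lay above every control, and the rise was 0.41 (SE 0.07, limma adjusted p = 0.000499). In JHU-029 HMMR changed by 0.19 (adjusted p = 0.155). TPX2, TACC3, CKAP2, CKAP5, NUSAP1 and PRC1 passed in neither line, and their FaDU changes ran from -0.10 to 0.09.

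Of the 5 chromosome structure genes, NCAPD2 rose in FaDU and 0 passed in JHU-029, where 3 were higher at an unadjusted p under 0.05 by limma. NCAPD2, a condensin subunit, rose by 0.16 (SE 0.05, limma adjusted p = 0.0296). The call was lost without FaDU control 3 (limma adjusted p = 0.0940) or knockdown array 2 (0.0938) or 3 (0.0663). It was also lost with median centring of arrays, FaDU fitted alone, a fixed replicate block or without the 2 FaDU controls titled new. MKI67 (Ki-67), the common proliferation marker, changed by -0.01 in JHU-029 and -0.09 in FaDU (SE 0.07 in both, limma adjusted p = 0.989 and 0.381). TOP2A, which untangles sister chromatids, changed by 0.12 (SE 0.05, limma adjusted p = 0.259) and -0.10 (adjusted p = 0.151). SMC4, another condensin subunit, changed by 0.17 and 0.08, and CDCA2, which recruits a phosphatase at mitotic exit, by 0.03 and -0.16.

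ANLN (anillin), the scaffold of the contractile ring, was the one gene called in both lines. In JHU-029 it read 12.14, 12.26 and 12.15 in controls and 12.46, 12.44 and 12.42 after knockdown, a rise of 0.26 (SE 0.05, limma adjusted p = 0.0211). In FaDU it went from 11.43, 11.40 and 11.31 to 11.74, 11.79 and 11.76, a rise of 0.39 (SE 0.05, limma adjusted p = 0.000161). The groups were apart in each line. The JHU-029 call was lost without control 1 (adjusted p = 0.0995), control 3 (0.103) or any of the knockdown arrays (0.0577 to 0.0844), and the FaDU call was kept in every such fit. CDCA3, a substrate adaptor that helps degrade the CDK1 inhibitor WEE1, read 9.13, 9.10 and 9.39 in the FaDU controls and 8.66, 8.46 and 8.61 after knockdown. The groups did not overlap, and the fall was 0.63 (SE 0.08, limma adjusted p = 0.000105), a 1.55-fold lower level. In JHU-029 its arrays were mixed, with a change of -0.00087.

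**Figure D4:**
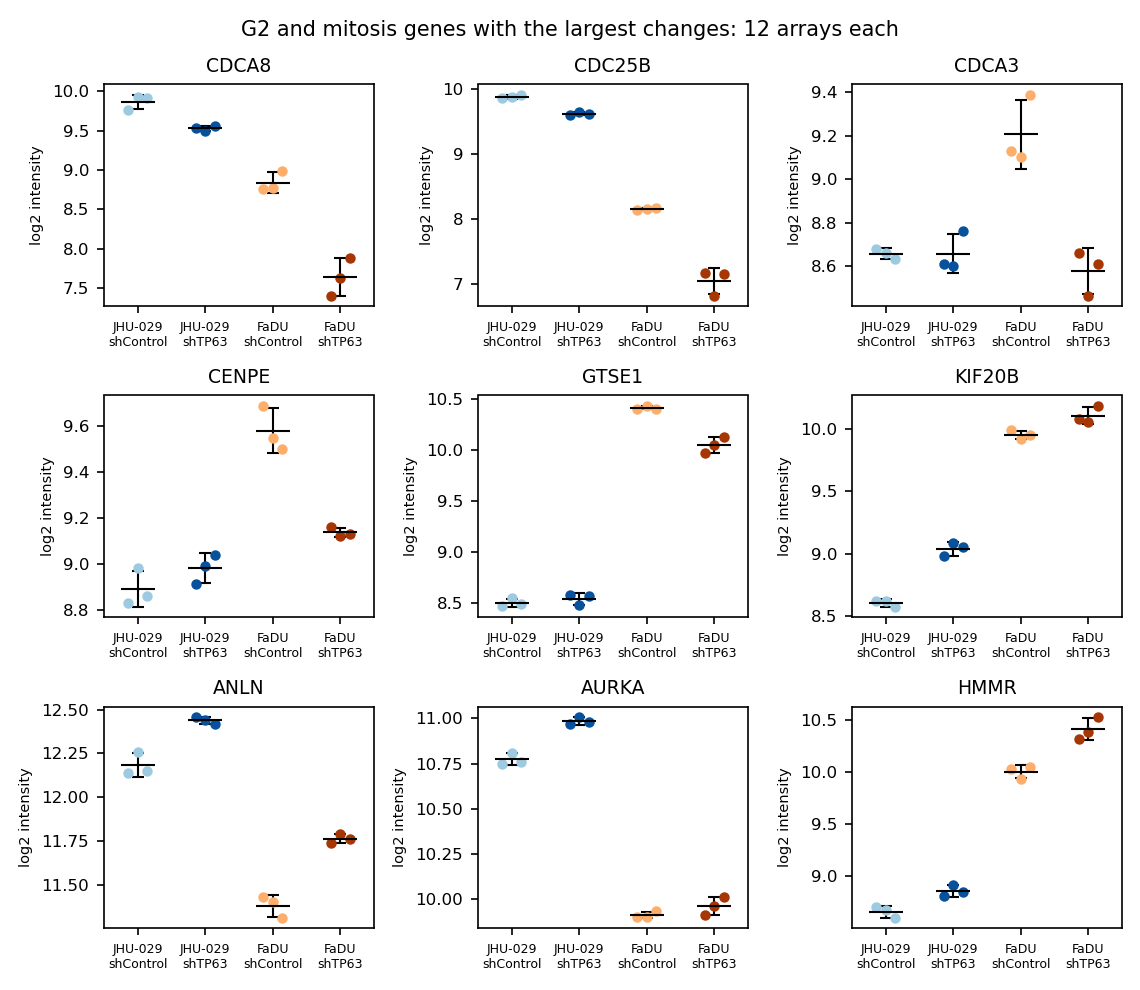
Log2 intensity of 9 G2 and mitosis genes on the 12 arrays (points), with group means and SD (bars, n = 3); each panel has its own axis, which does not start at 0. CDCA8, CDC25B, CDCA3, CENPE and GTSE1 drop in FaDU, KIF20B and AURKA are called higher in JHU-029 only, ANLN is higher in both lines and HMMR is called higher in FaDU only.

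Whether the response differed between the lines was tested directly, as the FaDU change minus the JHU-029 change. Of the 48 genes 44 had a negative difference, 13 (27.1%) passed, all negative, and 1 was positive at an unadjusted p under 0.05 by limma, where 11.3% of all genes were so. Of all 18404 genes 13.2% passed the adjusted threshold, 8.25% lower and 4.97% higher. The median difference of the genes was -0.18, beside 0.010 over all genes. CDCA8 (-0.87, SE 0.15, limma adjusted p = 0.0025) and CDC25B (-0.85, SE 0.11, adjusted p = 0.000516) differed most. CDCA3 (-0.63, SE 0.12, adjusted p = 0.00363), CENPE (-0.53, SE 0.09, adjusted p = 0.0024) and GTSE1 (-0.41, SE 0.08, adjusted p = 0.00488) followed.

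The other 8 genes were HJURP (-0.40), DLGAP5 (-0.38), KIF14 (-0.33), CENPF (-0.33), KIF20A (-0.32), BUB1 (-0.30), KIF20B (-0.28) and KIF23 (-0.26). For KIF20B the difference came with a rise in JHU-029, and for the other 12 with a fall in FaDU. Without the 2 FaDU controls titled new, 8 of the 48 genes passed, with the FaDU control level resting on 1 array. The genes called in both or 1 line did not all differ between them: ANLN (0.13, adjusted p = 0.319), HMMR (0.21, adjusted p = 0.164), NCAPD2 (0.01, adjusted p = 0.964), AURKA (-0.16, adjusted p = 0.149), BIRC5 (-0.17, adjusted p = 0.285), PTTG1 (-0.16, adjusted p = 0.391) and CDC20 (-0.25, adjusted p = 0.0648) did not pass the limma test of the difference. For BIRC5 this too depends on the probe set: the mean over its probe sets gave a difference of -0.37 (adjusted p = 0.0111). CDK1, CCNB1, PLK1, AURKB, MKI67 and TOP2A had differences of -0.22, -0.22, -0.23, -0.17, -0.08 and -0.21, with none past the threshold.

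The order of the genes was alike in both lines even though the level of response was shifted. Across the 48 genes the JHU-029 change and the FaDU change, which share no arrays, correlated at r = 0.811, and at 0.648 over the 46 genes without CDCA8 and CDC25B. Across all 18404 genes the value was 0.297. These correlations are across genes, which are not independent replicates, and are given as a description. CDCA8 and CDC25B were the lowest of the 48 in each line, and ANLN and HMMR were high in both. The cross-count was 1 gene risen in both lines, 2 risen in JHU-029 only, 2 risen and 15 fallen in FaDU only, and 28 called in neither.

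**Figure D5:**
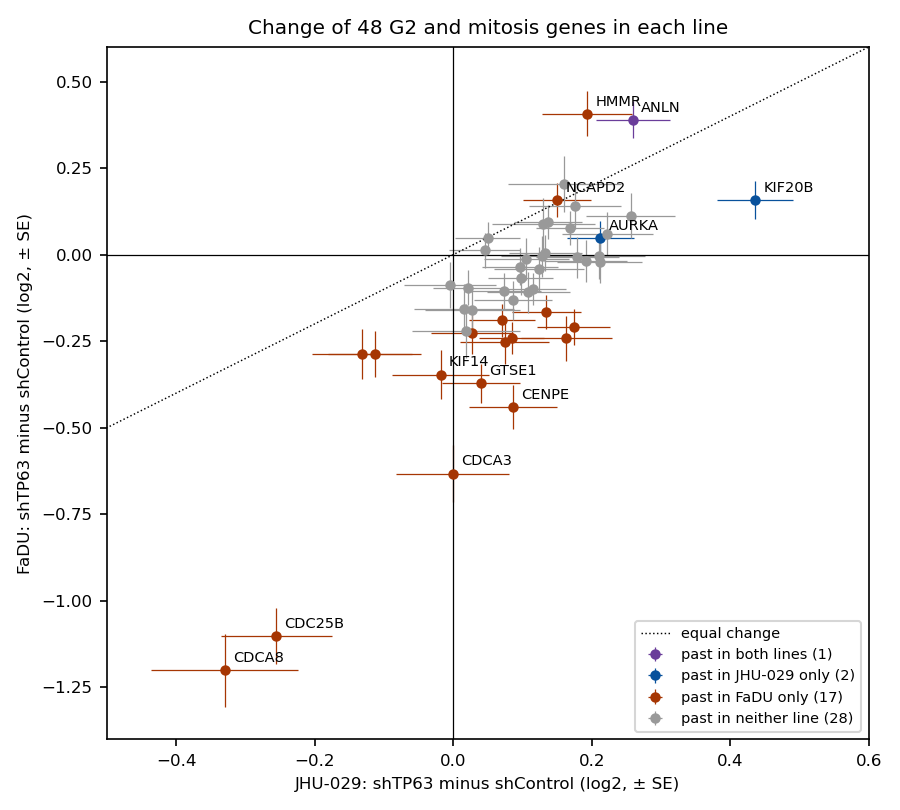
Change of each of the 48 genes on TP63 knockdown in JHU-029 (horizontal axis) and FaDU (vertical axis), in log2 units with bars of ± 1 SE; the dotted line marks equal change and colour marks the lines in which a gene passed the threshold. Most points lie to the right of 0 and below the dotted line, 44 of 48 of them below it, with CDCA8 and CDC25B far down on the left.

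The lines already differed in these genes before knockdown. Comparing FaDU controls with JHU-029 controls, 27 genes were higher in FaDU and 12 lower (81.2% called, against 63.8% of all genes, 33.4% higher and 30.4% lower), with a median difference of 0.30 beside 0.054 over all genes. The 3 FaDU controls lay above all 3 JHU-029 controls for 28 genes and below for 12, where 36.6% and 32.4% of all genes did so. GTSE1 was 1.92 higher in FaDU on the log2 scale (SE 0.06, limma adjusted p = 1.54e-11), a 3.78-fold difference. KIF20B (1.35), HMMR (1.34), NUF2 (0.90) and CCNB1 (0.87, limma adjusted p = 3.77e-08) were the next highest. CDC25B was lower in FaDU by 1.72 (SE 0.08, limma adjusted p = 9e-10), a 3.30-fold difference, followed by CDCA8 (-1.03), AURKA (-0.86), KIF4A (-0.84) and ANLN (-0.80).

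CDC25B and CDCA8, the genes with the largest falls on knockdown in FaDU, were therefore already lower in FaDU controls than in JHU-029 controls. GTSE1 was higher there by far and stayed above its JHU-029 level after knockdown. CDK1 (0.02), AURKB (0.07) and CCNA2 (-0.02) did not differ past the threshold between the control lines, while PLK1 (0.51), MKI67 (0.65) and TOP2A (0.14) were higher in FaDU. The TOP2A call was lost without JHU-029 control 1 or 2, with median centring of arrays or without the 2 FaDU controls titled new, with adjusted p up to 0.188. This comparison uses the same FaDU and JHU-029 control arrays as the knockdown comparisons, so their values are set side by side only.

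Other mitotic genes, a second list of 48 names with no member in common, were counted in the same way. Of the 47 measured, 3 (6.38%) rose and 0 fell in JHU-029, and 0 rose and 20 (42.6%) fell in FaDU, with medians of 0.08 and -0.12. Behind the counts of this list and the lists below, 1.80% of all genes rose and 1.35% fell in JHU-029. In FaDU 12.4% of all genes rose and 14.2% fell. In JHU-029 the risers were DEPDC1 (0.29), SPC25, a subunit of the NDC80 complex (0.28), and SPDL1, which helps bring dynein to kinetochores (0.28). The calls of DEPDC1 and SPC25 were lost without any 1 of the 6 JHU-029 arrays, and that of SPDL1 without any 1 control or without knockdown array 2 or 3, with adjusted p up to 0.129, 0.111 and 0.133 over all alternatives. In FaDU TRIP13, a remodeller of the checkpoint protein MAD2, fell by 0.68 (limma adjusted p = 2.08e-05), SPC24, also of the NDC80 complex, by 0.66 (5.48e-06), and ZWILCH, of the checkpoint's RZZ complex, by 0.61 (2.43e-05). The test of the line difference was passed by 16 (34%) of these genes, all lower. Of all genes 8.25% were lower and 4.97% higher in that test.

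The regulators of G2 and mitotic transcription included the largest falls near these genes. MYBL2 (B-MYB), the activator that works with MuvB, read 9.93, 10.06 and 10.05 in the FaDU controls and 8.52, 8.43 and 8.67 after knockdown. The groups were more than a log2 unit apart, and the fall was 1.47 (SE 0.06, limma adjusted p = 2.11e-08). In JHU-029 it changed by -0.22 (adjusted p = 0.101), with every knockdown array below every control. The difference between lines was -1.25 (limma adjusted p = 7.72e-06).

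FOXM1, the activator of late mitotic genes, fell in both lines. It read 10.96, 10.88 and 10.99 in the FaDU controls and 10.01, 10.16 and 10.14 after knockdown, a fall of 0.84 (SE 0.06, limma adjusted p = 9.64e-07). In JHU-029 it read 10.34, 10.27 and 10.26 and then 9.95, 9.99 and 10.07, a fall of 0.29 (SE 0.06, limma adjusted p = 0.0228). That call was lost without any 1 of the JHU-029 controls or without knockdown array 1 or 2, and the highest adjusted p over all alternatives was 0.128. E2F7, a repressor of E2F targets, fell by 0.30 in JHU-029 (limma adjusted p = 0.0246) and by 0.69 in FaDU (6e-06). Its JHU-029 call was lost without any 1 control or without knockdown array 2 or 3, with adjusted p up to 0.128 over all alternatives. In JHU-029 FOXM1 was lower while 41 of the 48 G2 and mitosis genes had positive changes, 3 of them past the threshold. A link between these values was not tested.

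Of the 22 regulators, 4 (18.2%) rose and 7 (31.8%) fell in FaDU, and 0 rose and 2 (9.09%) fell in JHU-029. E2F5 and E2F4, the repressor E2Fs that can sit in the DREAM complex, changed by -1.05 and -0.78 in FaDU (limma adjusted p = 8.26e-06 and 4.44e-07). TFDP2, an E2F partner, rose by 0.28 and RBL1 (p107), a pocket protein, by 0.24. The RBL1 call was lost with FaDU fitted alone and without the 2 FaDU controls titled new. The regulators differed between the lines in 8 cases, 7 (31.8%) lower and 1 (4.55%) higher, beside 8.25% and 4.97% of all genes.

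Genes of the APC/C, which the checkpoint restrains, and of its inhibitors and partners changed in both directions in FaDU. Of 16 genes measured, 5 (31.2%) rose and 7 (43.8%) fell there. These calls include genes that are not core subunits: the inhibitor FBXO5 (-0.30) and UBE2S (-0.19) fell, and FZR1 (0.24) rose. In JHU-029 0 passed by limma, with 11 of 16 changes positive and 4 higher at an unadjusted p under 0.05 (8.34% of all genes were). ANAPC7 (-0.69), ANAPC5 (-0.55) and ANAPC4 (-0.51) fell most, while ANAPC10 (0.38), ANAPC13 (0.31) and CDC27 (0.29) rose. The calls of ANAPC10 and CDC27 were lost only without the 2 FaDU controls titled new. All 6 are subunits of the complex. Its targets and partners among the G2 and mitosis genes, PTTG1, CDC20 and UBE2C, are described above.

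Among 17 G1 cyclins, CDKs and CDK inhibitors, CCNE2 and CDKN1B rose in both lines. CCNE2 (cyclin E2), which acts at the start of S phase, rose by 0.26 in JHU-029 (limma adjusted p = 0.0433) and by 1.07 in FaDU (2.08e-07). CDKN1B (p27), a CDK inhibitor, rose by 0.28 (limma adjusted p = 0.0196) and 0.77 (1.13e-06). In JHU-029 the CCNE2 call was lost without any 1 of the 6 arrays of that line or FaDU knockdown array 1 or 2 (adjusted p up to 0.156 over all alternatives). The CDKN1B call there was lost without any 1 control or knockdown array 2 or 3 (up to 0.110). CDKN1A (p21), another inhibitor, fell in FaDU by 0.69 (limma adjusted p = 6.34e-05), from 7.54, 7.80 and 7.82 to 7.08, 6.95 and 7.06, and changed by 0.03 in JHU-029. WEE1, the kinase that holds CDK1 inactive, rose in FaDU by 0.29 (limma adjusted p = 0.0231), but the mean over its probe sets gave -0.10 (adjusted p = 0.337), so its direction depends on the probe set. Its call was also lost without FaDU control 2 (adjusted p = 0.0853) or 3 (0.0608) or knockdown array 2 (0.0727) or 3 (0.0929). In all, 3 (17.6%) of the 17 rose and 0 fell in JHU-029. CCND1, cyclin D1, was the third riser, at 0.23, with limma adjusted p up to 0.163 over all alternatives. In FaDU 3 (17.6%) rose and 4 (23.5%) fell, beside 12.4% and 14.2% of all genes.

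The S phase genes are transcribed before G2. Of 40 measured, 1 (2.5%) rose in JHU-029 and 0 fell, with 28 positive changes and a median of 0.06. In FaDU 1 (2.5%) rose and 19 (47.5%) fell, with a median of -0.18. RRM2, a ribonucleotide reductase subunit, was the riser in both lines (0.26, limma adjusted p = 0.0359, and 0.28, adjusted p = 0.00346). Its JHU-029 call was lost without control 1 or 3 or any 1 knockdown array, with adjusted p up to 0.161 over all alternatives. The RRM2 call in FaDU was lost only without the 2 FaDU controls titled new. GINS3, of the replicative helicase, fell by 0.74 in FaDU (limma adjusted p = 2.99e-05) and CHAF1B, a histone chaperone subunit, by 0.52 (7e-06). A difference between the lines was called for 13 of the 40 (32.5%), all with the lower change in FaDU, beside 8.25% of all genes.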

How the data were processed

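Each of the 12 RNA samples was hybridised to an Affymetrix Human Gene ST array. The authors deposited linear intensities; RMA (robust multi-array average, which corrects background, normalises and summarises probes) and R 2.15.1 were used, per the submitters' processing notes. The sources used here do not say whether the arrays were normalised as 1 set. The linear intensities were put on a log2 scale. Of 32321 probe sets, 19158 carried 1 gene symbol, 1388 several and 11775 were not listed; the probe set with the highest mean stood for a gene, which left 18404 genes, 637 of them with several probe sets. Precision is limited by the number of arrays, 3 a group. A model of 4 groups was fitted with limma 3.58.1 in R 4.3.3 (8 residual and 4.17 prior degrees of freedom), with two-sided p-values, Benjamini-Hochberg adjustment across the 18404 genes and a threshold of 0.05. SE is that of the fit. The fit was tested on simulated data.

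The G2 and mitosis genes and all lists were chosen with earlier results of these data known, so counts and medians over lists are descriptions. By rule, CDK1, CCNB1, PLK1, AURKB, MKI67 and TOP2A were described in all cases, as were FOXM1, MYBL2, E2F7, CDKN1A and CCNE2; otherwise the 5 largest called changes per direction and comparison, up to 4 more genes per role, and up to 3 genes per direction of a list. Promoter windows came from RefSeq (GRCh38.p14). The alternatives changed the scaling, the probe set rule, a filter on dim genes, the variance model, the arrays used and a replicate block.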

Additional observations from a re-analysis of the deposited data

Results flagged for a closer look

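For 13 of the 48 G2 and mitosis genes the response to TP63 knockdown differed between the lines by the interaction test of limma (FaDU change minus JHU-029 change, adjusted p under 0.05 over all 18404 genes). The differences on the log2 scale were -0.87 for CDCA8, -0.85 for CDC25B, -0.63 for CDCA3, -0.53 for CENPE, -0.41 for GTSE1, -0.40 for HJURP, -0.38 for DLGAP5, -0.33 for KIF14, -0.33 for CENPF, -0.32 for KIF20A, -0.30 for BUB1, -0.28 for KIF20B and -0.26 for KIF23. CDCA8, CDC25B, CDCA3, CENPE, GTSE1, HJURP and DLGAP5 kept their call in every alternative run. KIF14 lost it in 16 alternatives, KIF20B in 15 and CENPF in 13, so those 3 differences are the least settled. KIF20A lost it in 1 alternative, BUB1 in 2 and KIF23 in 4.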

How the results depend on the processing

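The median changes of the 48 genes kept their sign in every alternative run. Leaving out 1 array at a time moved them between 0.092 and 0.124 in JHU-029, -0.087 and -0.051 in FaDU, -0.216 and -0.159 for the line difference and 0.265 and 0.308 between the control lines. The number of genes called moved more. In JHU-029 the 3 rises became 5 after another quantile normalization, 11 among genes above the median level only, 12 with a variance trend and 15 with array weights, and 1 to 4 with 1 array left out; only KIF20B was kept in every alternative. The count of 0 falls there became 1 with genes above the median level or a variance trend, 2 with JHU-029 fitted alone (CDC25B and CDCA8) or array weights, and 0 to 1 with 1 array left out. In FaDU the 3 rises became 5 after another quantile normalization or with genes above the median level, and 2 to 4 with 1 array left out, while the 15 falls ranged from 13 to 16 with 1 array left out and from 10 (FaDU fitted alone) to 18 (genes above the median level) over all alternatives, with 11 without the 2 FaDU controls titled new and 12 with a fixed replicate block. Of its 18 calls, 10 were kept in every alternative. BUB1, CENPF, DLGAP5, HJURP, KIF23 and NCAPD2 lost theirs with FaDU fitted alone. For the line difference the 13 genes became 20 with a variance trend, 8 without the 2 FaDU controls titled new, and 9 to 13 with 1 array left out. After the quantile normalization 23 of 48 changes in FaDU were positive, against 15; no scaling moved the median of all genes by over 0.1. Same-numbered arrays had correlations of deviations from the group means of -0.339, -0.010 and -0.199 in JHU-029 and -0.081, -0.067 and 0.013 in FaDU. Arrays of different number reached 0.294 in JHU-029 and 0.112 in FaDU. Deviations from a mean of 3 arrays are tied to each other, so these values cannot decide whether arrays were prepared in pairs. With the replicate number as a fixed block, 1 gene rose in JHU-029 and 7 passed for the line difference; the control lines could not be compared in that fit. Over all 18404 genes, leaving aside the alternatives that test probe sets or a subset of genes, the calls ran from 172 with that block to 2017 with array weights in JHU-029, against 580, from 3556 to 5328 in FaDU, against 4900, from 1395 to 3035 for the line difference, against 2433, and from 9964 to 11869 between the control lines, against 11739. Of the called genes named, WEE1 in FaDU alone changed sign, from 0.29 to -0.10 with the mean over its probe sets.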
